A study of Mus musculus with 8 samples.

Results

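The H3K4me3 peaks examined here lie between genes but not far from them. Of the 35486 H3K4me3 peaks in the deposited table, 5400 carried the annotation Distal Intergenic, and the 5083 of these with a listed distance of at most 50000 bp to the start site of their assigned gene were taken (94.1% of the intergenic peaks and 14.3% of all listed peaks). The rule used the annotation and the distance alone, not the signal. The peaks were assigned to 3863 genes, and every one of them is 400 bp long from its listed start to its listed end. They are called intergenic peaks hereafter, and the remaining 317 peaks of that annotation far intergenic peaks.

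H3K4me3 is trimethylation of lysine 4 of histone H3, a mark written by the SET1 and MLL methyltransferases. It is strongest at the promoters of active genes, where CpG-rich DNA recruits the methyltransferases, and it is weaker at most enhancers, which carry more H3K4me1. An H3K4me3 peak far from any annotated gene start can therefore mark an unannotated promoter, a transcribed enhancer or a repeat, and the mark alone does not say which.

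The peaks come from 4 CUT&Tag libraries of CD45-CD31-EpCAM+ cells sorted from mouse lung tumors. The 2 KL libraries (replicates 1 and 2) came from mice with Cre-dependent tumor alleles, among them Lkb1fl/fl, from which Cre removes Lkb1 (Stk11). The 2 KLG4m/m libraries (replicates 3 and 4) came from mice that carried the same alleles plus Gpx4m/m, a Gpx4 allele whose exons flanked by rox sites are removed by the tamoxifen-inducible recombinase DreERT2. Both groups received Ad-Cre through the nose and then tamoxifen, and cells were taken 10 weeks after Ad-Cre. Gpx4 encodes the peroxidase that detoxifies lipid peroxides and holds back ferroptosis, a death by lipid peroxidation. The comparison asks where H3K4me3 differs once tumor cells have lost Gpx4. The protocol in the labels counts fewer mice in total than there are libraries of this mark, so it is not certain that the libraries of a group came from separate animals, and p-values measure the spread between these libraries only. By the methods the mice of both groups were matched for sex and were young adults of like age when given Ad-Cre. The H3K27ac libraries were not analysed here.

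The libraries held 3244495 to 3463731 reads in the listed peaks. Levels are given as reads per 1000000 reads in the listed peaks (CPM), a scale on which a gain or loss common to all peaks cannot be seen. The intergenic peaks held 197488 to 213633 reads per library, and the median intergenic peak held 22 to 24 reads, so counting error is a large part of most single values. No intergenic peak was at 0 in any library. Reads of the same group differed at the intergenic peaks by little more than counting error, with a chi-square per degree of freedom of 1.07 between the KL libraries and 1.19 between the KLG4m/m libraries, whereas libraries of different groups gave 1.90 to 2.26. Promoters of epithelial genes carried peaks for 7 of 8 markers (Krt7 had none), but 11 of 13 leukocyte, 8 of 8 endothelial and 4 of 8 fibroblast marker genes had a promoter peak as well. In these sorted bulk cells, fewer cells of a type and less of the mark per cell cannot be told apart. The summed promoter signal of the epithelial markers was 209 to 216 CPM in KL and 174 to 189 CPM in KLG4m/m. That of the leukocyte markers was 174 to 178 CPM in KL and 207 to 211 CPM in KLG4m/m. That of the alveolar type 2 markers was 302 to 320 CPM in KL and 247 CPM in both KLG4m/m libraries. Among the epithelial markers only Epcam, by which the cells were sorted, was called. Its promoter peak held 142 and 149 reads in KL and 77 and 76 reads in KLG4m/m (edgeR adjusted p = 0.000374). By group means, Krt8, Cdh1 and Cldn4 were lower in KLG4m/m too and Cldn7, Krt18 and Krt19 higher, without a call. The promoter peak of Gpx4 gained signal, with 242 and 236 reads in KL against 304 and 301 reads in KLG4m/m (edgeR adjusted p = 0.00854), but a promoter outside the removed exons checks no label.

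The bases of the peaks are not shown, because the genome build of the peak positions is uncertain. The methods name an Ensembl release of the mouse genome that holds GRCm38, but the listed positions are not those of GRCm38, with the promoter peak of Purb, for example, listed at chr11:6425317-6425717 and its RefSeq window on GRCm38.p6 at chr11:6476027-6476326. Sequences of the assigned genes can be shown by name. Both peaks near Mir142 were among those that changed, and the gene yields a pair of mature miRNAs abundant in blood cells, shown from RefSeq (GRCm38.p6) with the seed, bases 2 to 8, in capitals. The arms of Mir146, a brake on NF-kB signalling whose neighbourhood held 6 intergenic peaks of which none passed the test, are given for comparison.
miR-142a-5p: cAUAAAGUagaaagcacuacu
miR-142a-3p: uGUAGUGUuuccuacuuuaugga
miR-146a-5p: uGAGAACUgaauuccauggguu
miR-146a-3p: cCUGUGAAauucaguucuucag
The seeds of the 4 arms differ. The miRNA genes were singled out after the values had been seen.

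Promoter windows are shown for 3 genes whose intergenic peaks carry results given further on, from 250 bases before to 50 bases after a RefSeq gene start (GRCm38.p6), with each CpG in capitals. Gpam has a pair of windows, one for each start, on the minus strand at chr19:55127189-55127488 and at chr19:55099428-55099727. Gtf2b is on the plus strand at chr3:142764997-142765296, and Purb is on the minus strand at chr11:6476027-6476326.
Gpam, first window: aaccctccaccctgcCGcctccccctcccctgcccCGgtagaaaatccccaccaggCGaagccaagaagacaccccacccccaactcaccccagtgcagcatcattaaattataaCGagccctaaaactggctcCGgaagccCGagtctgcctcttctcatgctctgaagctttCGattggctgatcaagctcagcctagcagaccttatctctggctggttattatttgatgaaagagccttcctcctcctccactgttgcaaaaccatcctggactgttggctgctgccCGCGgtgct
Gpam, second window: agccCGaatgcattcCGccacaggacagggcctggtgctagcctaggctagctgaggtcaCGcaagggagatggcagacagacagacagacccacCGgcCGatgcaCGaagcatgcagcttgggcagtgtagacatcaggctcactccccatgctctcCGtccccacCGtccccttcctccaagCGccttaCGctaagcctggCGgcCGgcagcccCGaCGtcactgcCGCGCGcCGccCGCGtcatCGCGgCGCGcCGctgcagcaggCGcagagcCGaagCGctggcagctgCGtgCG
Gtf2b: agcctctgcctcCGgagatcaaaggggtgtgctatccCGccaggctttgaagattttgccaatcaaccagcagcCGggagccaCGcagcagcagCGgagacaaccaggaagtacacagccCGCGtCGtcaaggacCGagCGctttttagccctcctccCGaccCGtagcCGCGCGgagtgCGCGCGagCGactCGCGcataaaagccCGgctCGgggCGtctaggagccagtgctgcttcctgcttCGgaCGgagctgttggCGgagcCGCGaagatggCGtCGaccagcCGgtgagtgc
Purb: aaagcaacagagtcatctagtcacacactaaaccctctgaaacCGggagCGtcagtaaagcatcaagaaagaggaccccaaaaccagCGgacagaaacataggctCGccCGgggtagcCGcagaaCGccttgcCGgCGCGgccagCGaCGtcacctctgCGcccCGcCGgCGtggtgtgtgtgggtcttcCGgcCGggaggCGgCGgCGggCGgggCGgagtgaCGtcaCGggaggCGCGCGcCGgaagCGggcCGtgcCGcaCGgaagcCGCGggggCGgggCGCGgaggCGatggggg
The windows hold 9, 30, 32 and 39 CpGs in that order. The median over all 32851 windows of the table is 7 CpGs, and 45.8%, 11.7%, 9.52% and 4.45% of the windows hold at least as many as these 4. The second Gpam window is thus CpG-rich, yet the table lists no promoter peak for Gpam, whereas Gtf2b and Purb have promoter peaks.

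The intergenic peaks were weak beside promoters. Their median level over the 4 libraries was 6.79 CPM, against 41.2 CPM for the 17073 peaks within 1 kb of a start site, 11.9 CPM for the 2916 promoter peaks further out, 7.44 CPM in first introns, 6.22 CPM in later introns and 5.89 CPM for the far intergenic peaks. The quartiles of the intergenic peaks were 4.62 and 12.2 CPM, and 181 of them reached 40 CPM. The median was nearly the same in each library, at 6.93 CPM in KL replicates 1 and 2, 6.95 CPM in KLG4m/m replicate 3 and 6.78 CPM in KLG4m/m replicate 4. The plot of levels by annotation shows how far the range of the intergenic peaks overlaps that of the introns.

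**Figure D1:**
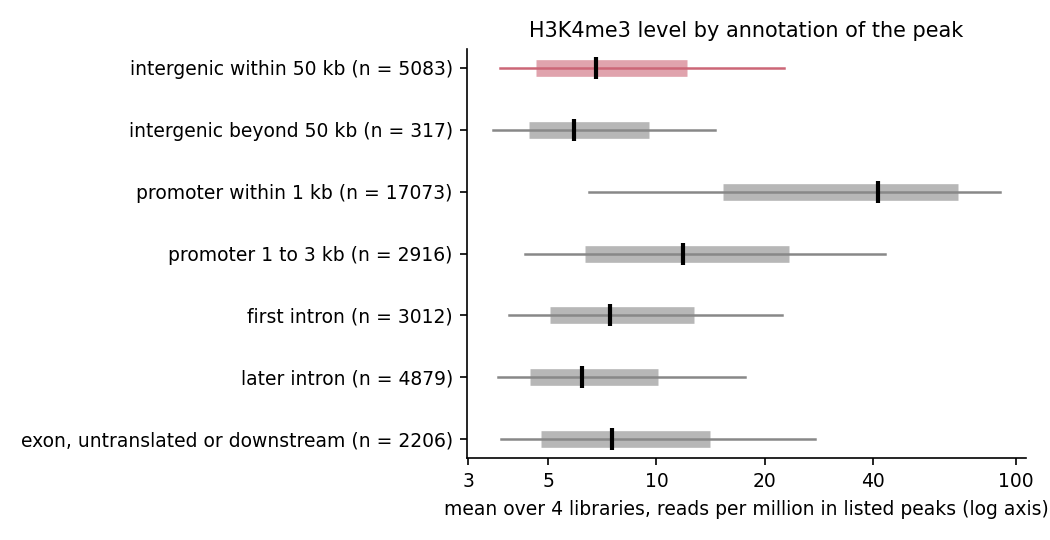
Mean H3K4me3 level over the 4 libraries (x axis, CPM, log axis) for each annotation of the peak (y axis), with a black tick at the median, a thick bar between the quartiles and a thin line from the 10th to the 90th percentile of the peaks. The intergenic peaks (median 6.79 CPM) lie with the intron peaks and below the peaks within 1 kb of a start site (median 41.2 CPM).

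Most intergenic peaks were closer to a gene than the limit required. The median distance to the assigned start was 12221 bp, with quartiles of 7210.5 and 20886.5 bp, and 3200 peaks (63.0%) lay upstream of the gene against 1883 downstream. Level and side both went with distance. The 569 peaks at 3 to 5 kb had a median of 8.85 CPM and were upstream in 75.7% of cases. The 1360 peaks at 20 to 50 kb had a median of 6.16 CPM and were upstream in 54.7% of cases. At the limit itself, the farthest peak inside was that of AA414768 at 49959 bp, with 29 and 30 reads in KL and 16 and 22 reads in KLG4m/m. The nearest peak outside was that of Gclc, the catalytic subunit of glutamate-cysteine ligase, at 50096 bp, with 22 and 23 reads in KL and 21 and 22 reads in KLG4m/m.

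Many of the assigned genes do not code for proteins. By RefSeq symbol, which matched 3628 of the 3863 genes, 2247 intergenic peaks belonged to protein-coding genes, 1579 to lncRNA genes, 694 to pseudogenes, 72 to miRNA genes, and 310 to genes without a match. Peaks of protein-coding genes lay upstream in 73.1% of cases and peaks of lncRNA genes in 58.3%. A single intergenic peak was assigned to 2997 genes, a pair to 619 genes, and 3 or more to 247 genes. The nearest other listed peak was another intergenic peak for 2289 of the 5083, and a peak within 1 kb of a start site for 1983. The median gap to it was 9014 bp.

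The share of all peak reads that fell in intergenic peaks was slightly higher in KLG4m/m. It was 5.92% and 5.94% in the KL libraries and 6.18% and 6.09% in the KLG4m/m libraries, means of 5.93% ± 0.0134 and 6.14% ± 0.0693 (SD, n = 2 each). The groups did not overlap, but a design of 2 against 2 cannot go below the exact two-sided permutation p of 0.333 that it gave. Most of this difference lay at 2 places where reads pile up. The 3 peaks assigned to Gm33780 (chr2:98492819-98497718) held 9345 and 10170 reads in KL and 15125 and 11760 reads in KLG4m/m. The 7 peaks assigned to Mir101c (chr9:3000332-3032879) held 3439 and 3749 reads in KL and 6084 and 4558 reads in KLG4m/m. The highest of all intergenic peaks, 43.0 kb from Gm33780, rose from 1974 ± 109 CPM to 2733 ± 421 CPM (edgeR adjusted p = 9.41e-05). Both places are known in the mouse for repeated satellite DNA, at which reads collect in many assays, and the part of this in the difference was not tested. Together these 10 peaks held 6.24% to 9.93% of the reads of all intergenic peaks, most in KLG4m/m replicate 3. Without them the share was 5.57% and 5.56% in KL and 5.61% and 5.61% in KLG4m/m, a ratio of 1.01 in place of 1.03.

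At single peaks, both directions of change occurred in nearly equal number. edgeR's quasi-likelihood test, run over all listed peaks and called where the Benjamini-Hochberg adjusted p was below 0.05, found 130 intergenic peaks higher and 116 lower in KLG4m/m. These are 2.56% and 2.28% of the intergenic peaks. Over all listed peaks the same test called 3.10% higher and 5.52% lower, so both shares of the intergenic peaks lay below the background, further below it for decreases; the difference between the shares was not tested. The far intergenic peaks had 7 called higher and 13 lower of 317. The median log2 fold change of the intergenic peaks was -0.0032, and that of all peaks was 0.0077. Scaling by the reads in Distal Intergenic peaks, in place of TMM over all peaks, gave 117 higher and 188 lower. This moves the share of higher calls from 52.8% to 38.4%. The reads used for that scaling include the 10 peaks at Gm33780 and Mir101c, which together held more reads in both KLG4m/m libraries. Their part in the shift was not tested. DESeq2 called 4 higher and 1 lower: a pair of Gm33780 peaks, a pair of Mir101c peaks, and, lower, the Eid3 peak, and it gave no adjusted p for 2825 of the 5083. Without either KLG4m/m library edgeR called 0 peaks of any annotation, with 577 and 604 intergenic peaks at an unadjusted p under 0.05, against 968 with all libraries. Without KL replicate 1 it called 97 higher and 64 lower, and without KL replicate 2 it called 59 higher and 52 lower. The cause of this dependence was not tested.

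At equal level, too, the share of decreases was smaller among intergenic peaks than among promoter peaks. Intron peaks had smaller shares still at 10 to 40 CPM, but larger ones below 10 CPM. Among peaks with a mean of 10 to 20 CPM, 3.24% of 987 intergenic peaks and 11.5% of 2258 peaks within 1 kb of a start site were called lower. Among peaks with a mean of 20 to 40 CPM, the shares were 2.68% of 447 and 13.7% of 3123. In first introns they were 2.18% and 1.03% at these levels, and in later introns 1.06% and 0.946%, so a small share of decreases was not particular to intergenic peaks. For increases at 10 to 20 CPM the shares were 4.15% of the intergenic and 3.28% of the promoter peaks, with 6.26% in first and 4.37% in later introns. At 40 CPM or more, 13 of 181 intergenic peaks (7.18%) were called higher, of which 7 lay at Gm33780 and Mir101c. At that level the shares were 2.84% of 8735 peaks within 1 kb of a start site, 11.7% of 77 in first introns and 10.3% of 68 in later introns. Peaks share libraries and are not replicates, so these shares are given without a test.

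**Figure D2:**
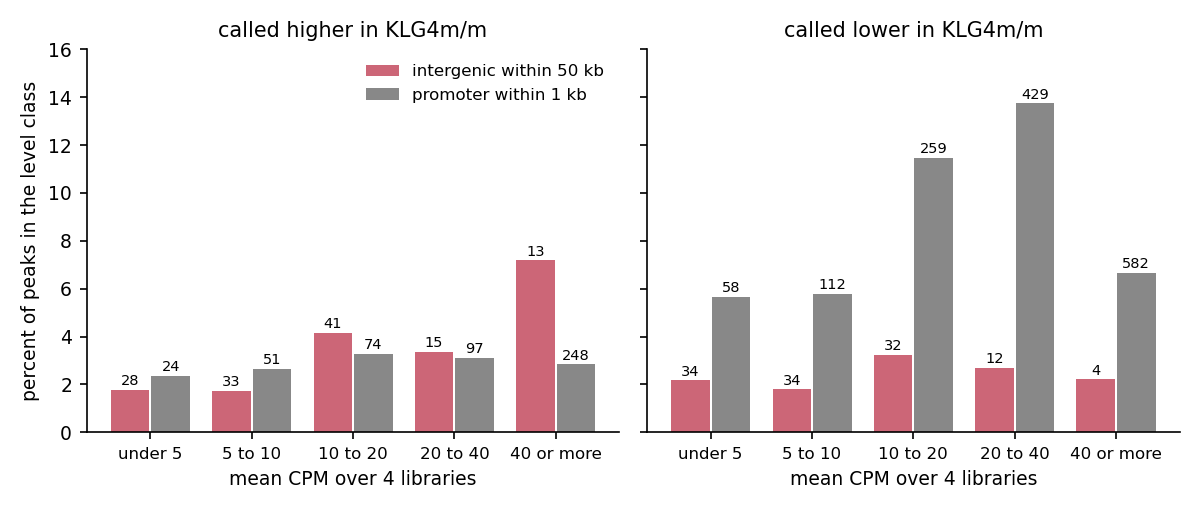
Percent of peaks called higher (left) or lower (right) in KLG4m/m by edgeR (y axis), by mean level over the 4 libraries in CPM (x axis), for intergenic peaks within 50 kb of a gene and for peaks within 1 kb of a start site, with the number called above each bar. Decreases were 2.68% of the intergenic peaks and 13.7% of the promoter peaks at 20 to 40 CPM.

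The called peaks lay upstream of their gene about as often as all intergenic peaks. Of the 130 higher peaks, 62.3% were upstream of their gene, and of the 116 lower peaks 62.1% were, against 63.0% of all. The higher peaks belonged to protein-coding genes in 48 cases, lncRNA genes in 46 and pseudogenes in 17. The lower peaks belonged to protein-coding genes in 59 cases, lncRNA genes in 27 and pseudogenes in 17. The median change was 1.93-fold among the higher and 2.15-fold among the lower peaks. Of all 5083 intergenic peaks, both KLG4m/m libraries lay above both KL libraries at 24.4% and below them at 24.8%, against 26.7% and 27.2% of all listed peaks.

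Among the called peaks with separate groups and at least 5 CPM in the higher group, those with the largest increases had few reads in KL. Ranking by fold change favours peaks with a low level in the lower group, so that low level is not a result. The largest increase under these limits, 8.55 kb from the lncRNA gene Gm40632 at chr10:43560312-43560712, held 5 and 6 reads in KL and 34 and 28 reads in KLG4m/m. Its level was 1.59 ± 0.204 CPM in KL and 9.24 ± 0.858 CPM in KLG4m/m, a log2 fold change of 2.52 ± 0.39 (SE, edgeR adjusted p = 0.000157). The gene's other intergenic peaks did not pass, with 39 and 41 reads in KL against 34 and 45 reads in KLG4m/m at one and 21 and 20 reads against 18 and 13 reads at the other. Under the same limits the pseudogene Gm9522 followed, with 4 and 11 reads in KL and 32 reads in both KLG4m/m libraries at a peak 6.94 kb upstream. The snoRNA gene Gm26272 had 6 reads in both KL libraries and 25 and 20 reads in KLG4m/m. These groups were far apart, but each rests on a few reads in KL.

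Among the protein-coding genes under the same limits were Cyp21a1 and Klf5. Cyp21a1, the steroid 21-hydroxylase of the adrenal gland, had a peak 4.19 kb upstream with 5 and 6 reads in KL and 22 and 18 reads in KLG4m/m, a 3.72-fold increase (edgeR adjusted p = 0.00824). The other increases named by the rule belonged to the lncRNA genes Gm31880, Gm40706, 6030471H07Rik, Gm31117 and Gm33781, at 2.86-fold to 3.58-fold. The separation of the groups in the plot of the largest changes follows from the rule that chose these peaks.

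Gtf2b, which encodes the general transcription factor TFIIB, had the largest fitted increase of any intergenic peak but was under the level set for naming, so it was chosen after its value was seen. Its peak 14.3 kb upstream held 2 and 1 reads in KL and 17 and 10 reads in KLG4m/m. With the KL libraries at or under 3 reads this is at least 4.62-fold higher (edgeR adjusted p = 0.0055). Its promoter peak held 270 reads in both KL libraries and 296 and 272 reads in KLG4m/m.

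The largest decreases, chosen by the same limits, ended at a few reads in KLG4m/m, which ranking by fold change favours as well. The pseudogene Gm7612 had a peak 18.8 kb away with 30 and 32 reads in KL and 6 and 3 reads in KLG4m/m. It fell from 8.95 ± 0.406 CPM to 1.33 ± 0.574 CPM, a log2 fold change of -2.69 ± 0.42 (SE, edgeR adjusted p = 0.000157). The only protein-coding gene among the 10 was Scarb1, which encodes the HDL receptor SR-BI that takes up cholesteryl esters. Its peak 7.20 kb upstream at chr5:125425277-125425677 held 15 and 20 reads in KL and 2 and 4 reads in KLG4m/m, a 5.42-fold decrease (edgeR adjusted p = 0.00618). The other 8 belonged to lncRNA genes (Gm33732, Gm34078, Gm40299, Gm34637) and pseudogenes (Gm9191, Gm29485, Rps15a-ps8, Gm5958) and fell 3.59-fold to 4.81-fold.

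**Figure D3:**
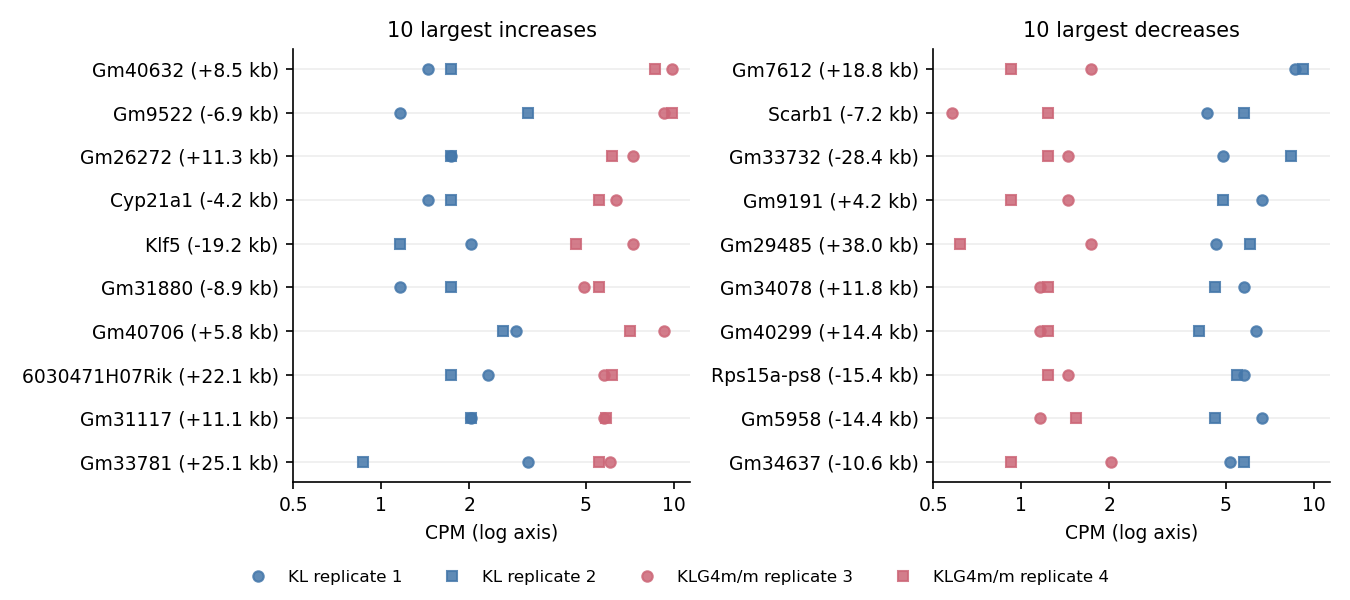
CPM in each library (x axis, log axis) for the 10 largest increases (left) and the 10 largest decreases (right) among intergenic peaks called by edgeR, labelled by assigned gene and signed distance to its start (negative is upstream). Blue symbols are KL and red symbols KLG4m/m. The groups are separate in every row because the choice required it. The mean of the lower group is at most 2.74 CPM, and ranking by fold change favours such low levels.

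The Eid3 peak had the lowest adjusted p of the decreases. Eid3 encodes a component of the SMC5/6 complex, and the peak 33.2 kb from its start, at chr10:82735698-82736098, held 124 and 112 reads in KL and 53 reads in both KLG4m/m libraries. It fell from 34.1 ± 2.46 CPM to 15.8 ± 0.701 CPM, a log2 fold change of -1.10 ± 0.17 (SE, edgeR adjusted p = 0.000128), and it was the only decrease that DESeq2 also called (adjusted p = 0.0117). The next listed peak, 8911 bp on and assigned to Gm33781, was called in the other direction, with 11 and 3 reads in KL and 21 and 18 reads in KLG4m/m. The nearest listed peak was called the same way for 24 of the 130 higher peaks and 10 of the 116 lower peaks. It was called the other way for 5 and 1, and not called for 101 and 105. Over all listed peaks 3.10% were called higher and 5.52% lower. The higher peaks include 8 in the runs of peaks at Gm33780 and Mir101c, and the counts of neighbours were not tested.

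Of the 866 genes with several intergenic peaks, 7 had 2 or more called higher, 1 had 2 or more called lower, and none had calls in both directions. These genes were picked out after their values were seen. The 7 were Gm33780, Mir101c, Gm19340, Gm35551, Mir142, Klf5 and Gpam. The one with decreases was LOC118568479, with 3 of 4 peaks lower, on an unplaced contig where the listed start of one peak is below 1.

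Klf5 encodes a zinc finger transcription factor of epithelial progenitors. Its peak 19.2 kb upstream, at chr14:99516573-99516973, held 7 and 4 reads in KL and 25 and 15 reads in KLG4m/m, a 3.72-fold increase (edgeR adjusted p = 0.0111). Its peak 32.6 kb upstream, at chr14:99503130-99503530, held 9 and 7 reads in KL and 28 and 19 reads in KLG4m/m, a 3.02-fold increase (edgeR adjusted p = 0.0115). In both the KLG4m/m libraries lay above the KL libraries, replicate 3 highest. The promoter peak did not move with them, at 147 and 146 reads in KL and 155 and 140 reads in KLG4m/m (edgeR adjusted p = 0.787).

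Gpam and Dgat2 encode the enzymes of the first and the last step of triacylglycerol synthesis, glycerol-3-phosphate acyltransferase of mitochondria and diacylglycerol acyltransferase. Gpam had a pair of intergenic peaks and no promoter peak. The peak 33.8 kb downstream of its start, at chr19:55051826-55052226, held 15 and 12 reads in KL and 35 and 37 reads in KLG4m/m, a log2 fold change of 1.46 ± 0.30 (SE, edgeR adjusted p = 0.00312). The peak at 35.8 kb, at chr19:55049902-55050302, held 25 and 24 reads in KL and 48 and 44 reads in KLG4m/m, a log2 fold change of 0.96 ± 0.24 (SE, edgeR adjusted p = 0.0139). In both, the groups were well apart.

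The Dgat2 peak 6.74 kb upstream, at chr7:98838657-98839057, held 32 and 41 reads in KL and 58 and 69 reads in KLG4m/m. It rose from 10.5 ± 1.83 CPM to 19.0 ± 3.16 CPM, 1.81-fold (edgeR adjusted p = 0.0135), while the Dgat2 promoter peak held 354 and 381 reads in KL and 364 and 319 reads in KLG4m/m. The intergenic peak of Gpd1l, a glycerol-3-phosphate dehydrogenase, held 17 and 16 reads in KL and 18 and 15 reads in KLG4m/m, with overlapping groups. That of Agpat4, an acyltransferase of the next step, held 8 and 12 reads in KL and 16 and 15 reads in KLG4m/m (edgeR adjusted p = 0.323), and at this depth a change of this size could not be told from the spread.

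**Figure D4:**
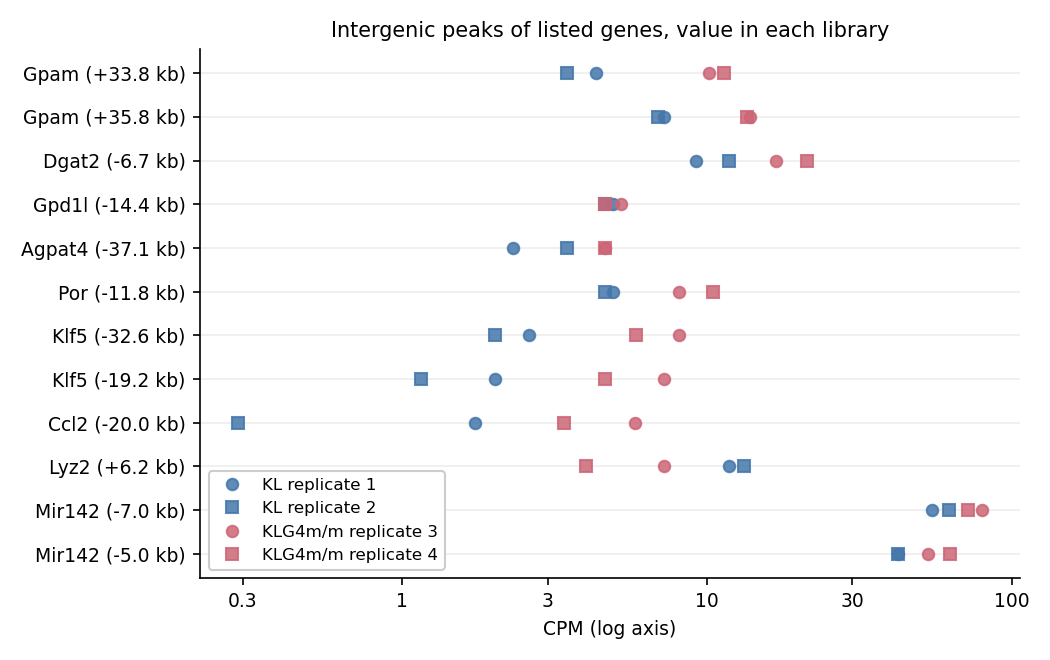
CPM in each library (x axis, log axis) for intergenic peaks of listed genes that passed the test, of Gpd1l and Agpat4, and of Mir142, labelled by gene and signed distance to its start. Blue symbols are KL and red symbols KLG4m/m. The groups are separate for every peak but that of Gpd1l, and the Agpat4 peak did not pass the test.

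Across gene lists, few intergenic peaks passed. Of 53 triacylglycerol and lipid droplet genes, 8 had 10 intergenic peaks, of which 3 rose (the Gpam pair and Dgat2) and 0 fell, with a median log2 fold change of -0.025. The 7 others include Plin2, a lipid droplet coat protein, with 42 and 38 reads in KL and 30 and 21 reads in KLG4m/m (edgeR adjusted p = 0.153). The study drew Gpam, Dgat2, Gpd1l and Agpat4 from these tumors, so they are not independent evidence of a direction. Of 37 ferroptosis and antioxidant genes, 10 had 15 intergenic peaks, of which 1 rose and 0 fell, with a median of -0.041. It was the peak 11.8 kb upstream of Por, the oxidoreductase that passes electrons to cytochrome P450 and can promote lipid peroxidation, with 17 and 16 reads in KL and 28 and 34 reads in KLG4m/m (edgeR adjusted p = 0.0459). That call was lost with limma, with scaling by Distal Intergenic peaks and without any single library, its log2 fold change of 0.96 ranging from 0.77 to 1.14.

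Of 57 lung and endoderm transcription factor genes, 16 had 21 intergenic peaks, of which 2 rose, both of Klf5, and 0 fell (median log2 fold change 0.045). The peaks of Foxa1, Irx2 and Irx5 stayed within the spread, with 59 to 61, 164 to 193 and 106 to 111 reads over the 4 libraries. Of 30 AP-1 and immediate-early genes, 14 had 16 intergenic peaks, of which 0 passed edgeR's adjusted threshold (median 0.015). Egr1 came nearest, with 124 and 114 reads in KL and 155 and 147 reads in KLG4m/m at a peak 4.77 kb upstream (edgeR adjusted p = 0.0533).

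Of 51 chemokine and cytokine genes, 11 had 18 intergenic peaks, of which 1 rose and 0 fell (median 0.19). It was the peak at -19979 bp from Ccl2, the monocyte chemoattractant, with 6 and 1 reads in KL and 20 and 11 reads in KLG4m/m (edgeR adjusted p = 0.0216). Of 42 NF-kB and innate immune genes, 12 had 22 intergenic peaks, of which 0 rose and 1 fell (median -0.19). It was the peak 6.25 kb downstream of the start of Lyz2, the lysozyme gene of macrophages and alveolar type 2 cells, with 41 and 46 reads in KL and 25 and 13 reads in KLG4m/m (edgeR adjusted p = 0.0119). Its promoter peak fell as well, from 89 and 98 reads to 50 and 63 reads (edgeR adjusted p = 0.0197). The summed promoter signal of the alveolar type 2 markers was lower in KLG4m/m too, and its part in the Lyz2 result was not tested. Socs3, an inhibitor of cytokine signalling with 6 intergenic peaks, had none that passed. Over the lists, 7 of 102 intergenic peaks rose and 1 fell. All listed peaks had 3.10% and 5.52% called, and all intergenic peaks 2.56% and 2.28%. Gpam and Klf5 count by 2 peaks each among the rises. The lists were fixed with earlier results of these data known and hold genes that the study drew from these tumors. No excess of rises is therefore read from these counts.

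The 78 intergenic peaks assigned to 50 miRNA genes had 8 called higher and 1 lower, against 3.10% and 5.52% of all listed peaks, but 5 of the 8 were those of Mir101c at the start of chromosome 9. Of the other 71, 3 rose and 1 fell, and no difference from the background is read from such small counts. Mir142 held a pair of the 3. Its peak 6.99 kb upstream, at chr11:87640299-87640699, had 190 and 216 reads in KL and 277 and 233 reads in KLG4m/m, a 1.31-fold increase (edgeR adjusted p = 0.0218). Its peak 5.02 kb upstream had 147 reads in both KL libraries and 183 and 203 reads in KLG4m/m, a 1.37-fold increase (edgeR adjusted p = 0.0194), and the Mir142 peak 1.14 kb upstream rose as well (1.34-fold, edgeR adjusted p = 0.0126). miR-142, whose arms are given above, is a miRNA of blood cells, and these increases moved with the summed promoter signal of the leukocyte markers given above. The part of leukocytes in them was not tested. The other changes were at Mir467h (44 and 51 reads in KL, 81 and 79 reads in KLG4m/m, edgeR adjusted p = 0.00677) and, lower, Mir6935 (29 and 26 reads in KL, 8 and 14 reads in KLG4m/m, edgeR adjusted p = 0.026). The other 3 intergenic peaks of Mir6935 did not pass. The strongest Mir146 peak held 193 and 187 reads in KL and 187 and 171 reads in KLG4m/m, with overlapping groups.

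Of the 6 intergenic peaks of the leukocyte marker list, 0 rose and 1, that of Lyz2, fell. A pair of B lymphocyte genes outside that list, chosen because they rose, had a raised intergenic peak each and say nothing of leukocyte genes in general. Pax5, the transcription factor of B cell identity, had 15 and 14 reads in KL and 24 and 37 reads in KLG4m/m at a peak 3.16 kb upstream (edgeR adjusted p = 0.0318). Cxcr5, the chemokine receptor of follicular B cells, had 11 and 9 reads in KL and 31 and 21 reads in KLG4m/m at a peak at -15957 bp (edgeR adjusted p = 0.014), and its other 2 intergenic peaks did not pass. Of the 12 promoter peaks of leukocyte markers, which belong to 11 genes, those of 2 genes rose and that of 1 gene fell. The part of leukocytes in the result was not tested.

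The highest intergenic peaks after Gm33780 and Mir101c did not pass the test. Gm21811 had 802 and 769 reads in KL and 877 and 836 reads in KLG4m/m (edgeR adjusted p = 0.0793), above both KL libraries but by 1.13-fold only. Gm17655, Gm5218, Lncppara, Gm12245 and Gm26887 lay between 92.6 and 143 CPM in the group means, and their differences were within 1.04-fold to 1.14-fold.

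Whether an intergenic peak moved apart from the promoter of its assigned gene was tested on 2403 pairs over 1806 genes. Each pair was an intergenic peak and the strongest peak within 1 kb of the start of the same gene. Here and above, the assignment is one of position and does not show that a peak acts on that gene. The promoter was the stronger of the pair in 2110 (87.8%), by a median ratio of 4.46. The log2 fold changes of the members of a pair were weakly related over these 2403 pairs (Pearson r = 0.143, Spearman rho = 0.149), which share libraries and, within a gene, the promoter peak, and the sign was the same in 55.4%. Where the intergenic peak reached 20 CPM, r was 0.105 and rho 0.155 over 320 pairs. An intergenic peak called higher had a promoter called higher in 4 pairs, lower in 3 and not called in 47. One called lower had a promoter called lower in 9 pairs, higher in 0 and not called in 45. Where the intergenic peak was not called, the promoter was called higher in 85 pairs, lower in 193 and not called in 2017. Promoter decreases thus outnumbered increases there too, and these counts were not tested.

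The test of the difference within each library, edgeR's interaction of peak kind and genotype, called 60 pairs with a relative gain at the intergenic peak (2.50%) and 32 with a relative loss (1.33%). The gains more often had a promoter called lower than an intergenic peak called higher. Of the 60, the promoter was called lower in 39 and the intergenic peak called higher in 18, and in 3 both were. The medians were 44.0 CPM at the promoters and 7.19 CPM at the intergenic peaks, so calls do not show which peak changed more. Of the 5 gains that the rule names, the fitted change was larger at the intergenic peak for Scaf4 and Heatr5a. It was larger at the promoter for Purb, Rasa2 and Syndig1l. Of the 32 losses, the intergenic peak was called lower in 18 and the promoter called higher in 7. Without KL replicate 1 the gains numbered 43 and the losses 18, without KL replicate 2 they numbered 28 and 14, and without KLG4m/m replicate 3 or 4 edgeR called 0 pairs, with 306 and 309 at an unadjusted p under 0.05 against 475 with all libraries.

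Purb, a single-stranded DNA binding repressor, had the largest relative gain that the rule names. Its promoter peak fell from 89 and 74 reads in KL to 19 and 16 reads in KLG4m/m, while its intergenic peak 21.4 kb upstream held 19 and 21 reads in KL and 21 and 26 reads in KLG4m/m. The difference of the log2 fold changes was 2.44 ± 0.41 (SE, edgeR adjusted p = 0.00028). Purb has 2 other intergenic peaks. The one 13.9 kb upstream held 8 and 22 reads in KL and 18 and 10 reads in KLG4m/m and gained on the promoter too (2.11 ± 0.50, SE, edgeR adjusted p = 0.00861). The one 8.07 kb upstream was, like the promoter, at lower values in both KLG4m/m libraries, with 20 and 18 reads in KL and 13 and 4 reads in KLG4m/m (edgeR adjusted p = 0.12), and its difference from the promoter did not pass (edgeR adjusted p = 0.245). Rasa2, a RAS GTPase activating protein, had the same pattern, with a promoter at 66 and 82 reads in KL and 27 and 18 reads in KLG4m/m beside an intergenic peak at 28 and 17 reads against 30 and 31 reads.

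At Heatr5a the peaks changed in opposite directions. There the intergenic peak 4.61 kb upstream rose from 12 reads in both KL libraries to 27 and 29 reads, and the promoter fell from 199 and 194 reads to 113 and 101 reads, a difference of 2.09 ± 0.36 (SE, edgeR adjusted p = 0.00028). At Scaf4, an mRNA processing factor, the intergenic peak held 7 and 8 reads in KL and 16 and 20 reads in KLG4m/m (edgeR adjusted p = 0.0571), and the promoter fell from 318 and 312 reads to 186 and 155 reads. The nearer intergenic peak of Scaf4 held 41 and 22 reads in KL and 33 and 27 reads in KLG4m/m, with overlapping groups. Syndig1l, a synapse-associated protein, had an intergenic peak stronger than its promoter, and the promoter fell from 22 and 20 reads to 6 reads in both KLG4m/m libraries.

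Among the relative losses, Scarb1 led. Its intergenic peak fell while its promoter peak held 392 and 381 reads in KL and 433 and 452 reads in KLG4m/m, a difference of -2.69 ± 0.53 (SE, edgeR adjusted p = 0.00168). Il12a, a subunit of interleukin 12 and 35, went the other way about, its promoter rising from 72 and 51 reads to 114 and 119 reads beside an intergenic peak of 17 and 18 reads in KL and 7 and 9 reads in KLG4m/m. Its other 2 intergenic peaks held 85 and 109 reads in KL against 101 and 94 reads, and 37 and 29 reads against 41 reads in both KLG4m/m libraries. At Eid3 the intergenic peak was the stronger of the pair and fell while the promoter held 24 and 23 reads in KL and 47 and 32 reads in KLG4m/m, a difference of -1.90 ± 0.32 (SE, edgeR adjusted p = 0.00028). Gm53396 and Dnpep, an aspartyl aminopeptidase, complete the 5.

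Among the listed genes with both peaks, the Dgat2 intergenic peak gained on its promoter by 0.90 ± 0.23 on the log2 scale (SE, edgeR adjusted p = 0.0163). Both Klf5 peaks gained on their shared promoter, by 1.53 ± 0.41 and 1.83 ± 0.47 (SE, edgeR adjusted p = 0.0236 and 0.0149). Agpat4 differed by 0.33 ± 0.41 (SE, edgeR adjusted p = 0.709) and Gpd1l by 0.041 ± 0.36 (SE, edgeR adjusted p = 0.969), both within their errors. The Agpat4 promoter peak itself was called higher, 1.27-fold (edgeR adjusted p = 0.0304). It held 209 and 231 reads in KL and 264 and 275 reads in KLG4m/m.

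**Figure D5:**
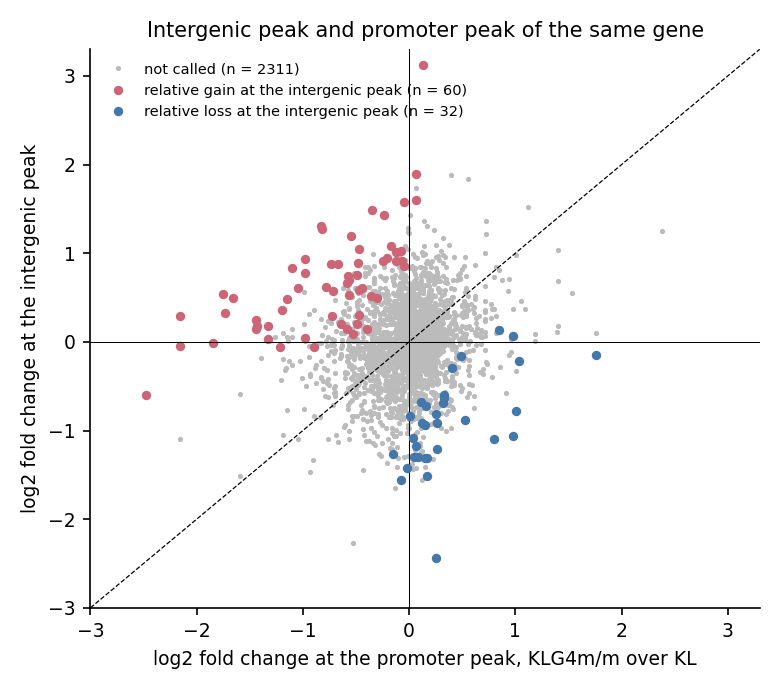
Log2 fold change, KLG4m/m over KL, at the promoter peak (x axis) and at the intergenic peak (y axis) for 2403 pairs of the same gene. Red points are the 60 relative gains and blue points the 32 relative losses called by edgeR, grey points the pairs not called, and the dashed line marks equal change. Most red points lie left of 0, where the promoter fell.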

How the data were processed

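H3K4me3 was profiled in 4 libraries, 2 per group, of the 8 samples in the series. The kit is named CUT&Tag in the labels although its enzyme is pAG-MNase. The authors trimmed and aligned reads, kept those above a mapping quality, removed duplicates, called peaks and counted reads. The submitters' processing notes name Trim Galore 0.6.10, BWA 0.7.15, Picard 2.17.3, MACS2 2.2.7.1 and HOMER 4.11.1. The methods give HOMER as the annotator, but the categories in the table are in the style of another tool. The deposited table holds whole-number read counts per peak and library, and CPM values that the authors made by dividing each count by the library's reads in the listed peaks. Its columns of the authors' own comparison (log2 fold change, mean log2 CPM, test statistic and p-values) were not used. The table does not name its build, and its positions differ from GRCm38 and are given as listed. Base composition and motifs of the peaks were not run.

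Counts of all 35486 peaks, with no filter, were fitted with edgeR 4.0.16 in R 4.3.3 (TMM scaling, quasi-likelihood test, Benjamini-Hochberg adjustment over all peaks, two-sided, threshold 0.05). Fold changes are KLG4m/m over KL and errors of means are SDs of 2 libraries. Pairs of an intergenic and a promoter peak were fitted in edgeR with each library as a block, and adjusted over all 2403 pairs. Shares of reads were compared by an exact permutation test, whose smallest p for 2 against 2 is 0.333. The scripts were tested on simulated data. A fold against a group with every library at or under 3 counts is given as a bound from that floor, applied per library, which covers counting error only. Named were the 10 largest increases and 10 largest decreases among called peaks with at least 5 CPM in the higher group and no overlap of groups (1 peak a gene), the 8 highest peaks, called peaks of the listed genes, Gpam, Dgat2, Gpd1l and Agpat4, the peaks beside the distance limit, and the 5 largest relative gains and losses. Peaks and lists were chosen with earlier results of these data known. Alternatives were DESeq2 1.42.0, limma 3.58.1 on log2(CPM + 1), other scalings, a minimum of 5 CPM, a minimum fold of 1.5, a limit of 25 kb, peaks chained over gaps of 1 kb, each library left out, and, added after the data were seen, the exclusion of Mir101c and Gm33780. Each library held 3244495 to 3463731 reads in peaks, which left a median of 22 to 24 reads per intergenic peak. Some items of the labels and tables are not reported here.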

Additional observations from a re-analysis of the deposited data

How the results depend on the processing

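Against 130 higher and 116 lower intergenic peaks, DESeq2 called 4 and 1, and scaling by reads in Distal Intergenic peaks gave 117 and 188. With 1 library left out, the calls ranged from 0 to 97 higher and from 0 to 64 lower, with 0 in both directions without either KLG4m/m library. The relative gains (60) ranged from 0 to 43 and the relative losses (32) from 0 to 18 over the same fits, and with intergenic peaks of at least 5 CPM the gains were 70 and the losses 51. The cause of these shifts was not tested. Scaling by reads in listed peaks (127 and 121), limma (112 and 107), a minimum of 5 CPM (111 and 105), a minimum fold of 1.5 (111 and 109), a limit of 25 kb (104 and 88), chained peaks (131 and 121) and the exclusion of Mir101c and Gm33780 (123 and 115) stayed within 1.5 times the counts. That exclusion, chosen after seeing the data, moved the ratio of the share of reads to 1.00746. Of the values of single named peaks and pairs, 317 kept their direction and side of the threshold, 125 lost the threshold and 4 changed sign, all 4 near 0. This tally runs over the settings and counts peaks that were not called in either fit as kept. It leaves out a setting where a peak was not fitted or got no adjusted p. With DESeq2 it holds 6 values kept and 5 that lost the threshold. Por was the only named peak lost with limma and with Distal Intergenic scaling. Scaling by Distal Intergenic peaks gave log2 fold changes of -6.95e-05 for Gm26887 and -0.00046 for Gpd1l. With a library left out, Gpd1l ranged from -0.0357 (without KLG4m/m replicate 3) to 0.138 (without KLG4m/m replicate 4), and relative to its promoter from -0.0613 to 0.133. No paired analysis was possible because the KL libraries are numbered 1 and 2 and the KLG4m/m libraries 3 and 4. With 22 to 24 reads at the median intergenic peak, modest changes at weak peaks could not be seen.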
